A study of Homo sapiens with 12 samples.

Results

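LP-1 is an established human multiple myeloma line, grown from malignant plasma cells and labelled as wild type. The 6 LP-1 libraries of a series of 12 are described here: 3 of cells that received dihydroartemisinin (DHA) at its IC50 for 12 h, and 3 of cells that received an equal amount of the solvent, dimethyl sulfoxide (DMSO), for the same time. Neither the concentration of DHA nor the origin of the 3 replicates of a group (separate cultures or not) is given in the sources used here, so each p-value reflects the spread of these samples alone, which may be technical. Members were all genes of the LP-1 table with at least 1 FPKM (fragments scaled by transcript length and sequencing depth) in at least 3 of the 6 libraries. They numbered 12514 of 61806 genes, noncoding, immunoglobulin and mitochondrially encoded genes included. Libraries held 13.4 to 17.5 M reads in genes, and 3 reads of a 2 kb transcript correspond to 0.0857 to 0.112 FPKM, which covers counting error only.

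The artemisinin drugs act in the body as DHA. Ferrous iron or heme cleaves the endoperoxide of the molecule, which turns the drug into a radical that alkylates proteins and lipids. Plasma cells make and fold large amounts of antibody, so that their amino acid supply, endoplasmic reticulum (ER) and proteasome carry a high load. When translation initiation is restrained by phosphorylation of eIF2, the transcription factor ATF4 is translated and switches on genes of amino acid uptake, amino acid synthesis and tRNA charging; unfolded cytosolic proteins release the heat shock factors, and surplus zinc activates the metal-responsive factor MTF1.

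Values are FPKM in replicate order 1, 2 and 3. A log2 change is DHA minus DMSO on log2(FPKM + 1), which understates the change of genes with low values, and ± beside it is a standard error; ± beside a level is an SD with n = 3 per group. A pair of log2 changes in parentheses gives the value with all 6 libraries first and the value without DMSO replicate 3 second. Adjusted p-values come from limma with Benjamini-Hochberg adjustment over all 12514 genes, two-sided, and "rose" and "fell" are used for an adjusted p under 0.05. Genes named for the size of their change were picked from those whose groups do not overlap. A gene under 1 FPKM in every library of 1 group could pass the filter only through the group in which it was high. In bulk samples, fewer cells of a type and less RNA per cell cannot be told apart.

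DMSO replicate 3 stood apart from the other DMSO libraries. The first principal component, with 71.1% of the variance, separated the groups, and the second, with 18.8%, set DMSO replicate 2, at -26.9, against DMSO replicate 3, at 27.3, with the DHA libraries between 1.84 and 7.52. The median SD of a gene was 0.198 over the DMSO libraries and 0.0654 over the DHA libraries on the log2 scale. In DMSO replicate 3, genes in the shortest quartile of exon length were 0.22 higher and those in the longest quartile 0.31 lower (median log2 difference -0.31) than in DMSO replicates 1 and 2, and its mitochondrially encoded genes held 16% of the summed FPKM against 24.1 and 27.5%. The column of DMSO replicate 3 is headed in the spelling of the DHA columns rather than that of DMSO replicates 1 and 2, and the labels give no batch. Counts, medians and most log2 changes are therefore given with and without this library.

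DHA was followed by changes in a large share of the genes. Of the 12514 genes 2504 rose (20.0%) and 2523 fell (20.2%), together 40.2%. Counts of each list below are to be read beside these shares. Calls in both directions near them do not set a list apart. Without DMSO replicate 3, 3499 rose (28.0%) and 3574 fell (28.6%), together 56.5%. Of the calls made with all 6 libraries 2488 rises and 2490 falls were shared by that fit, 49 were not called in it, and 0 were called in the opposite direction. Calls of at least 2-fold were fewer, 394 higher (3.15%) and 501 lower (4.0%). In 3778 genes (30.2%) the 3 DHA values lay above the 3 DMSO values, and in 3577 (28.6%) below. The median log2 change over all genes was 0.01 with all libraries and -0.01 without DMSO replicate 3. When immunoglobulin and mitochondrially encoded genes were taken out and the rest set to 1 sum, this median moved to 0.13 and the share of higher calls from 49.8% to 60.6%, so all changes are relative to the summed FPKM of a library.

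**Figure D1:**
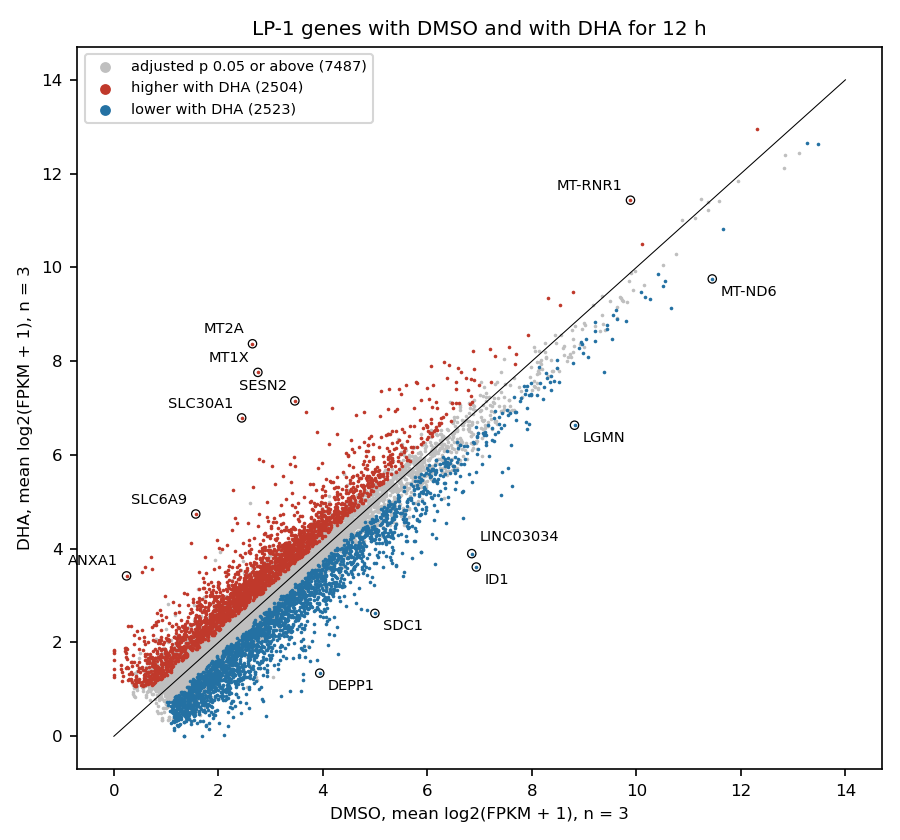
Mean log2(FPKM + 1) of each of the 12514 genes over the 3 DMSO libraries (x axis) and the 3 DHA libraries (y axis) of LP-1, with called genes coloured, the line of equal values and 13 named genes circled. The metallothionein genes MT2A and MT1X and the zinc exporter SLC30A1 lie farthest above the line among the circled genes, and ID1 and LINC03034 farthest below it.

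The classes of genes moved unequally. Of 9911 protein-coding genes 2189 rose and 2008 fell (median log2 change 0.03). Of 1193 long noncoding genes 142 rose and 299 fell, with a median of -0.13 (170 and 364, median -0.14, without DMSO replicate 3). Of 811 pseudogenes 88 rose and 121 fell (median -0.13 with and without that library, where 103 rose and 199 fell). Of 258 small noncoding genes 37 rose (14.3%) and 11 fell (4.26%), with a median of 0.34 (47, 24 and 0.20). Rises outnumbered falls there, but both shares were below those of all genes (20.0% and 20.2%). Where such a gene lies within a longer gene, its reads cannot be told from those of the longer transcript. None of 20 immunoglobulin or T cell receptor segments rose and 8 fell (0 and 11 without DMSO replicate 3), and 2 of 17 mitochondrially encoded genes rose and 5 fell (2 and 13). Change also ran with exon length. From the shortest to the longest quartile the median log2 change was -0.19, -0.06, 0.06 and 0.20, and without DMSO replicate 3 it was -0.13, -0.03, 0.03 and 0.10; its part in the lists of short genes below was not tested.

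The label was checked against marker genes. All 10 plasma cell markers were at 1 FPKM or above in at least 1 library, and their summed level was 3917 to 4706 FPKM with DMSO and 3577 to 3829 FPKM with DHA, most of it JCHAIN, the joining chain of secreted antibodies. Of these markers 2 rose and 6 fell, with a median log2 change of -0.64 (-0.50 without DMSO replicate 3, where 2 rose and 6 fell). All 10 markers of T and NK cells, 10 of monocytes and macrophages, 8 of erythroid cells and 6 of epithelial cells were under 1 FPKM in all libraries; their summed levels reached at most 1.11 FPKM. Of 8 B cell markers 5 were under 1 FPKM, with BLK, a kinase of B cell receptor signalling, the highest at a mean of 3.53 FPKM with DMSO and 1.40 FPKM with DHA. Of 10 stromal and endothelial markers 9 were under 1 FPKM, and PECAM1 (CD31) fell from 4.68 ± 0.806 FPKM to 1.41 ± 0.0608.

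The largest rises were in genes that bind or export zinc. MT2A (ENSG00000125148, chr16:56608199-56609497, + strand, in GRCh38), a metallothionein that binds zinc and copper, was at 4.56, 4.78 and 6.74 FPKM with DMSO and 352, 344 and 297 FPKM with DHA (log2 change 5.72 ± 0.15 and 5.87, adjusted p = 1.61e-05). MT1X (ENSG00000187193, chr16:56682424-56684196, + strand), its paralog, was at 5.52, 4.76 and 7.21 FPKM with DMSO and 214, 218 and 215 FPKM with DHA (log2 change 5.0 ± 0.13 and 5.15, adjusted p = 1.61e-05). SLC30A1 (ENSG00000170385, chr1:211571568-211578742, - strand), which exports zinc across the plasma membrane, was at 4.42, 4.33 and 4.6 FPKM with DMSO and 109, 108 and 112 FPKM with DHA (log2 change 4.34 ± 0.07 and 4.36, adjusted p = 3.02e-06). The DHA libraries differed little among themselves beside these changes. Of 10 metallothioneins listed, 2 were tested, MT2A and MT1X, and 2 rose. The others did not pass the filter, so these 2 do not stand for the family. Metallothioneins are close in sequence, and the rule by which the authors assigned shared reads is unknown, so the level of 1 member is uncertain.

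Promoters of these genes are shown because MTF1, the metal-responsive factor, is known to bind repeats of a short element in metallothionein promoters. The sequences are from RefSeq (GRCh38.p14), run 5′ to 3′ on the gene's strand from 250 bases before to 50 after the start site, and have matches to the metal response element core TGCNCNC on either strand in capitals. The windows are chr16:56608334-56608633, + strand for MT2A, chr16:56682220-56682519, + strand for MT1X and chr1:211579112-211579411, - strand for SLC30A1.
MT2A: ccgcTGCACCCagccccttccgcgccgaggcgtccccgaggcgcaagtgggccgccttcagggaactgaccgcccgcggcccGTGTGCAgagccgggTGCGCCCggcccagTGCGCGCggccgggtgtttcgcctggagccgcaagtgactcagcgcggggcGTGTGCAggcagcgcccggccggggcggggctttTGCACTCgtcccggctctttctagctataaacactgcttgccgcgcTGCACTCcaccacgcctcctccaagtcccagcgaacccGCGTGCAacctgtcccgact
MT1X: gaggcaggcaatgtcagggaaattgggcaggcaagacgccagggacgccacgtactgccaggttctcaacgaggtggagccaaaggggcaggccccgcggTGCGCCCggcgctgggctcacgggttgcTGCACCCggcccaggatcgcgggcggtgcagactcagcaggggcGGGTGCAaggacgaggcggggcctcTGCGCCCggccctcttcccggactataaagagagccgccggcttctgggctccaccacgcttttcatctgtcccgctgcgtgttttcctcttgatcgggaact
SLC30A1: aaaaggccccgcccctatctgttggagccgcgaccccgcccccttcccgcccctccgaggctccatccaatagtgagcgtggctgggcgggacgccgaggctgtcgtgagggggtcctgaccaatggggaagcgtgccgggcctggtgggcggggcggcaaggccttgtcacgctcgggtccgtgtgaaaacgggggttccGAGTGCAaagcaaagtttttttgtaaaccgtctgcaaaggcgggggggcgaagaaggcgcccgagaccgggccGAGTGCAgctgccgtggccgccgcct
The MT2A window held 8 matches, that of MT1X 4 and that of SLC30A1 2. At least 1 match was in 62.4% of the 11826 promoters of tested protein-coding genes, at least 4 in 404 of them (3.42%) and at least 8 in 7 (0.0592%). The share with a match was 59.8% among promoters of called risers, 56.0% among those of risers of at least 2-fold and 55.9% among all 35097 promoters of the table. A single match thus does not set risers apart. A match describes these letters and is not evidence of binding.

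The other zinc genes moved less. Of 10 zinc exporters of the SLC30 family, 6 of them tested, 5 rose, 0 fell and 1 did not pass. Over zinc exporters of the SLC30 family the median log2 change was 0.55, or 0.54 without DMSO replicate 3, where 5 rose and 0 fell. Those named beside SLC30A1 are SLC30A7 (from 3.1 ± 0.896 FPKM to 6.2 ± 0.22), which loads zinc into the secretory pathway, SLC30A5 (from 10.4 ± 1.12 FPKM to 15.9 ± 0.593) and SLC30A6 (from 13.4 ± 1.92 FPKM to 19.8 ± 0.372), with adjusted p from 0.0046 to 0.0107; the fifth was SLC30A4. Of 14 zinc importers of the SLC39 family, 11 of them tested, 3 rose, 3 fell and 5 did not pass. Over zinc importers of the SLC39 family the median log2 change was -0.09, or -0.21 without DMSO replicate 3, where 4 rose and 5 fell; the sign of the median turned with a mean of at least 5 FPKM and with the rescaling described above. SLC39A14, which also carries iron, rose from 14.8 ± 2.13 FPKM to 33.4 ± 1.41 (log2 change 1.13 and 1.02). SLC39A10 fell from 5.49 ± 0.931 FPKM to 2.07 ± 0.101 (log2 change -1.07 and -1.18) and SLC39A4 from 8.81 ± 2.88 FPKM to 3.4 ± 0.218 (log2 change -1.12 and -0.89). Importers thus differed in direction among themselves. Among copper genes, the importer SLC31A1 rose from 9.18 ± 1.44 FPKM to 15.2 ± 0.749 and the copper chaperones ATOX1 and CCS fell, ATOX1 from 15.1 ± 3.34 FPKM to 7.18 ± 0.164 and CCS from 13.9 ± 2.23 FPKM to 8.56 ± 0.566 (adjusted p from 0.00355 to 0.00938).

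Genes of iron and heme moved in both directions, and those of glutathione mostly upward. Of 16 genes of heme synthesis and breakdown, all tested, 4 rose, 4 fell and 8 did not pass. Over genes of heme synthesis and breakdown the median log2 change was 0.0, or 0.01 without DMSO replicate 3, where 4 rose and 6 fell. BACH1, a heme-binding repressor of HMOX1, was at 7.35, 6.83 and 6.23 FPKM with DMSO and 18.4, 18.3 and 18.1 FPKM with DHA (log2 change 1.31 ± 0.08 and 1.25, adjusted p = 0.000187), and the groups did not overlap. HMOX1, heme oxygenase 1, was at 3.97, 3.08 and 5.23 FPKM with DMSO and 23.6, 24.9 and 24.6 FPKM with DHA (log2 change 2.34 ± 0.15 and 2.49, adjusted p = 0.000232). BLVRA, the biliverdin reductase that acts after heme oxygenase, was at 10.7, 8.21 and 16.9 FPKM with DMSO and 4.54, 2.98 and 4.33 FPKM with DHA (log2 change -1.35 ± 0.26 and -1.08, adjusted p = 0.00858). The repressor and its target thus rose together, while the enzyme of the next step fell. ALAD, an enzyme of heme synthesis, fell from 12.3 ± 0.981 FPKM to 6.57 ± 0.219 (log2 change -0.81 and -0.87), and ABCB6, a porphyrin transporter, rose from 2.86 ± 0.0651 FPKM to 4.97 ± 0.523 (log2 change 0.63 and 0.61). Of 16 genes of iron uptake, storage and export, 13 of them tested, 4 rose, 3 fell and 6 did not pass. Over genes of iron uptake, storage and export the median log2 change was -0.10, or -0.12 without DMSO replicate 3, where 4 rose and 6 fell; the sign of the median turned with a mean of at least 5 FPKM. The transferrin receptor TFRC and the ferritin heavy chain FTH1 rose, by log2 1.34 and 1.24 and 0.69 and 0.68, while STEAP3, which reduces iron in endosomes, fell from 4.26 ± 0.675 FPKM to 2.35 ± 0.146 (log2 change -0.64 and -0.75). Of 17 genes of glutathione and cystine, 13 of them tested, 8 rose, 0 fell and 5 did not pass. Over genes of glutathione and cystine the median log2 change was 0.57, or 0.60 without DMSO replicate 3, where 9 rose and 2 fell. SLC7A11 (ENSG00000151012, chr4:138164097-138242349, - strand), the cystine importer, was at 0.53, 0.48 and 0.33 FPKM with DMSO and 10.7, 10.8 and 9.62 FPKM with DHA (log2 change 2.97 ± 0.10 and 2.91, adjusted p = 2.31e-05). IDH1, a cytosolic source of NADPH, rose from 9.75 ± 1.49 FPKM to 35.6 ± 1.7 (log2 change 1.77 and 1.88) and GCLM, of the glutamate-cysteine ligase, from 4.56 ± 0.25 FPKM to 16.4 ± 0.415 (log2 change 1.65 and 1.68). Of 29 targets of the antioxidant factor NRF2, 25 of them tested, 17 rose, 0 fell and 8 did not pass. Over targets of the antioxidant factor NRF2 the median log2 change was 0.52, or 0.61 without DMSO replicate 3, where 20 rose and 2 fell. OSGIN1, an oxidative stress gene, rose from 0.77 ± 0.164 FPKM to 5.21 ± 0.479 (log2 change 1.81 and 1.80).

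Most amino acid transporters rose. Of 21 amino acid transporters, 15 of them tested, 13 rose, 0 fell and 2 did not pass. Over amino acid transporters the median log2 change was 1.43, or 1.32 without DMSO replicate 3, where 14 rose and 0 fell. SLC6A9 (ENSG00000196517, chr1:43991500-44031467, - strand), a glycine transporter, was at 2.08, 2.58 and 1.36 FPKM with DMSO and 27.2, 26.6 and 23.5 FPKM with DHA (log2 change 3.17 ± 0.16 and 3.01, adjusted p = 0.000115). SLC1A4, a transporter of alanine, serine and cysteine, was at 11.5, 10.2 and 8.16 FPKM with DMSO and 61.7, 62.8 and 58.5 FPKM with DHA (log2 change 2.51 ± 0.12 and 2.39, adjusted p = 0.000102). SLC38A2, a sodium-coupled carrier of neutral amino acids, was at 50.6, 50.9 and 41.5 FPKM with DMSO and 178, 180 and 180 FPKM with DHA (log2 change 1.90 ± 0.10 and 1.80, adjusted p = 0.000126). DHA values were above all DMSO values in the 3 genes, as in 30.2% of all tested genes. Genes named for the size of their change were picked for this, so it adds no support. SLC3A2, the heavy chain shared by SLC7A11 and other exchangers, rose from 37.5 ± 9 FPKM to 126 ± 5.25 (log2 change 1.75 and 1.92). Enzymes that make amino acids followed in part. Of 22 genes of serine, one-carbon, asparagine and proline synthesis, 18 of them tested, 10 rose, 2 fell and 6 did not pass. Over genes of serine, one-carbon, asparagine and proline synthesis the median log2 change was 0.59, or 0.51 without DMSO replicate 3, where 11 rose and 3 fell. GPT2, the mitochondrial alanine transaminase, was at 5.47, 4.99 and 5.55 FPKM with DMSO and 39, 39.5 and 38.7 FPKM with DHA (log2 change 2.66 ± 0.07 and 2.69, adjusted p = 1.61e-05). PSPH, the last enzyme of serine synthesis, rose from 14.1 ± 2.36 FPKM to 51.9 ± 0.699 (log2 change 1.82 and 1.94). The mitochondrial one-carbon enzymes SHMT2 and MTHFD2 rose from 54.6 ± 4.71 FPKM to 185 ± 2.41 and from 28.5 ± 2.8 FPKM to 81.1 ± 2.05, while SHMT1, the cytosolic counterpart of SHMT2, fell from 4.08 ± 0.359 FPKM to 2.72 ± 0.142 (adjusted p from 0.000115 to 0.00996). The call of SHMT1 was lost without DHA replicate 2 (0.052), with adjusted p from 0.00618 to 0.052 over the alternatives.

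Most factors linked to ATF4 rose. Of 22 ATF4-linked factors, 19 of them tested, 12 rose, 1 fell and 6 did not pass. Over ATF4-linked factors the median log2 change was 1.31, or 1.36 without DMSO replicate 3, where 13 rose and 2 fell. TRIB3, a pseudokinase, was at 12, 10.9 and 12.3 FPKM with DMSO and 118, 122 and 117 FPKM with DHA (log2 change 3.23 ± 0.08 and 3.27, adjusted p = 1.61e-05). PPP1R15A, which guides the phosphatase of eIF2, was at 16.6, 16.3 and 15.8 FPKM with DMSO and 72.3, 74.2 and 75.6 FPKM with DHA (log2 change 2.12 ± 0.07 and 2.10, adjusted p = 2.31e-05). ATF3, a stress-induced repressor and activator, was at 7.85, 8.35 and 6.5 FPKM with DMSO and 40.4, 38.9 and 41.9 FPKM with DHA (log2 change 2.28 ± 0.10 and 2.19, adjusted p = 8.01e-05). The SDs of these genes were small beside the changes. The secreted factors split. Of 10 secreted stress signals, 5 of them tested, 4 rose, 1 fell and 0 did not pass. Over secreted stress signals the median log2 change was 1.29, or 1.22 without DMSO replicate 3, where 4 rose and 1 fell. STC2, stanniocalcin 2, rose from 10.2 ± 1.56 FPKM to 53 ± 0.391 (log2 change 2.28 and 2.16), ADM2, a calcitonin-family peptide, from 14.9 ± 1.34 FPKM to 37.9 ± 0.279 (log2 change 1.29 and 1.22), and INHBE, an activin subunit, from 0.67 ± 0.381 FPKM to 13.2 ± 0.537 (log2 change 3.12 and 2.91), while ADM, adrenomedullin, fell from 189 ± 48.9 FPKM to 51.5 ± 0.915 (log2 change -1.83 and -1.63). VEGFA, the vascular growth factor, rose from 16.3 ± 0.9 FPKM to 29.9 ± 0.652 (log2 change 0.84 and 0.80).

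The CEBP-ATF response element, the composite site at which ATF4 pairs with CEBP factors, was searched as TGATGNAA on both strands in the same RefSeq windows. It was in 27 of 382 promoters (7.07%) of protein-coding genes called higher by at least 2-fold, in 2.84% of promoters of all called risers (2.56% without DMSO replicate 3), in 1.84% of those of all tested protein-coding genes and in 3.62% of all 35097. The genes of the first group that held it were 25, among them the transporters SLC1A4, SLC1A5, SLC7A1, SLC3A2 and SLC38A1, the synthetases AARS1, CARS1, GARS1, IARS1, MARS1, NARS1 and TARS1, and ASNS, ATF3, CEBPG and CHAC1. Windows of a degrading enzyme, a transcription factor and a synthetase show where it lay, in capitals: CHAC1, which breaks down glutathione (chr15:40953221-40953520, + strand, match at -209 from the start site), ATF3 (chr1:212565157-212565456, + strand, 1 of its 2 start sites in the table, match at -191) and the alanyl-tRNA synthetase AARS1 (chr16:70289457-70289756, - strand, match at -187).
CHAC1: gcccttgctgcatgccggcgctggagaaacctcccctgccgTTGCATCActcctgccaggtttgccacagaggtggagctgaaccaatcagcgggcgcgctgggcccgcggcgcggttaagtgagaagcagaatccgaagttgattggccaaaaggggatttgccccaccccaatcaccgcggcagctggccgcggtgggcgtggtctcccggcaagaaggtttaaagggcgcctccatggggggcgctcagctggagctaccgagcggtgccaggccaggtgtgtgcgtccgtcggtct
ATF3: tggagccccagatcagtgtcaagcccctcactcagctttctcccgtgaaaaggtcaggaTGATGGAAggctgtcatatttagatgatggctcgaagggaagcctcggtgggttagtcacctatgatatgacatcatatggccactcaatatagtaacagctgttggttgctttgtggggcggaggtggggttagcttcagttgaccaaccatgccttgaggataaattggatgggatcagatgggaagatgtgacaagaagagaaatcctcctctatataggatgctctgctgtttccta
AARS1: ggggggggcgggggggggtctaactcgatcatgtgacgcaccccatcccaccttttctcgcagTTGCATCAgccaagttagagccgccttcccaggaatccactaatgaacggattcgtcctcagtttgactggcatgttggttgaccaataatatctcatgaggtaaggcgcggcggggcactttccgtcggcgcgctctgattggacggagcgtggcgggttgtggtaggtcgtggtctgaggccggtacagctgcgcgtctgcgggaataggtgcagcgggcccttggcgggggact
CHAC1 was at 4.28, 4.37 and 5.5 FPKM with DMSO and 13.7, 14.9 and 13.3 FPKM with DHA (log2 change 1.39 ± 0.11 and 1.49, adjusted p = 0.000346), and AARS1 at 44.3, 42 and 39.8 FPKM with DMSO and 123, 127 and 126 FPKM with DHA (log2 change 1.56 ± 0.08 and 1.52, adjusted p = 0.000103). The antioxidant response element TGACNNNGC was in 16% of riser promoters and 14.7% of those of all tested coding genes, and the E box CACGTG in 10.1% and 9.81%. Among promoters of genes called higher by at least 2-fold, the antioxidant response element was in 18.3% and the E box in 6.81%. A promoter was matched for 79.3% of fallers and 72.6% of those of at least 2-fold, against 84.1% of risers. Motif shares of fallers were not worked out, so whether an element is particular to risers was not tested.

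Most enzymes that charge tRNAs in the cytosol rose, and most of those of mitochondria did not pass. Of 20 cytosolic aminoacyl-tRNA synthetases, all tested, 14 rose, 1 fell and 5 did not pass. Over cytosolic aminoacyl-tRNA synthetases the median log2 change was 0.99, or 0.99 without DMSO replicate 3, where 14 rose and 2 fell. WARS1, for tryptophan, was at 26, 26.3 and 19.4 FPKM with DMSO and 115, 117 and 112 FPKM with DHA (log2 change 2.23 ± 0.13 and 2.09, adjusted p = 0.000159). MARS1, for methionine, rose from 23.1 ± 1.17 FPKM to 65.9 ± 2.57 (log2 change 1.47 and 1.45), and CARS1, for cysteine, from 5.02 ± 0.509 FPKM to 17.3 ± 0.267 (log2 change 1.61 and 1.66). QARS1, for glutamine, was the member that fell, from 75.8 ± 3.87 FPKM to 50 ± 0.446 (log2 change -0.59 and -0.55). Of 17 mitochondrial synthetases, 15 of them tested, 1 rose, 2 fell and 12 did not pass. Over mitochondrial synthetases the median log2 change was 0.01, or -0.01 without DMSO replicate 3, where 2 rose and 4 fell; the sign of the median turned with a mean of at least 5 FPKM and without DMSO replicate 3. No test of the difference between the lists was made. Initiation factors held calls in both directions, as did all genes (20.0% rose and 20.2% fell). Of 35 translation initiation factors, all tested, 7 rose, 3 fell and 25 did not pass. Over translation initiation factors the median log2 change was 0.03, or 0.06 without DMSO replicate 3, where 14 rose and 5 fell. EIF5, which triggers GTP hydrolysis by eIF2, rose from 40.4 ± 1.41 FPKM to 122 ± 3.07 (log2 change 1.57 and 1.60), EIF3J from 66.3 ± 5.58 FPKM to 109 ± 4.77 (log2 change 0.71 and 0.77) and EIF2S2, the beta subunit of eIF2, from 88.2 ± 11.8 FPKM to 136 ± 2.48 (log2 change 0.63 and 0.74). Restraints on translation were counted apart. Of 10 eIF2 kinases and 4E-binding proteins, 9 of them tested, 3 rose, 0 fell and 6 did not pass. Over eIF2 kinases and 4E-binding proteins the median log2 change was 0.30, or 0.02 without DMSO replicate 3, where 3 rose and 3 fell. EIF4EBP1, which sequesters the cap-binding factor, was at 104, 99.5 and 152 FPKM with DMSO and 298, 315 and 280 FPKM with DHA (log2 change 1.35 ± 0.18 and 1.54, adjusted p = 0.00213), and EIF2AK3 (PERK), the eIF2 kinase of the ER, rose from 8.35 ± 1.23 FPKM to 15.8 ± 0.255 (log2 change 0.86 and 0.74). Of 14 inhibitors of mTOR signalling, 11 of them tested, 3 rose, 1 fell and 7 did not pass. Over inhibitors of mTOR signalling the median log2 change was 0.20, or 0.11 without DMSO replicate 3, where 4 rose and 2 fell. SESN2, an inhibitor of mTORC1 signalling, was at 12.4, 10.3 and 7.85 FPKM with DMSO and 141, 147 and 136 FPKM with DHA (log2 change 3.69 ± 0.15 and 3.53, adjusted p = 6.4e-05), and SESN3 rose from 4.88 ± 1.37 FPKM to 11.8 ± 0.351 (log2 change 1.15 and 0.96). DEPTOR, which binds mTOR itself, fell from 589 ± 49.4 FPKM to 456 ± 15.9 (log2 change -0.37 and -0.30). The call of DEPTOR was lost with no filter (adjusted p = 0.151), with quantile normalization (adjusted p = 0.434), with the rescaling described above (adjusted p = 0.0661) or without DMSO replicate 1 (0.1), DHA replicate 1 (0.151), DHA replicate 2 (0.15) or DHA replicate 3 (0.105), with adjusted p from 0.00746 to 0.434 over the alternatives.

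**Figure D2:**
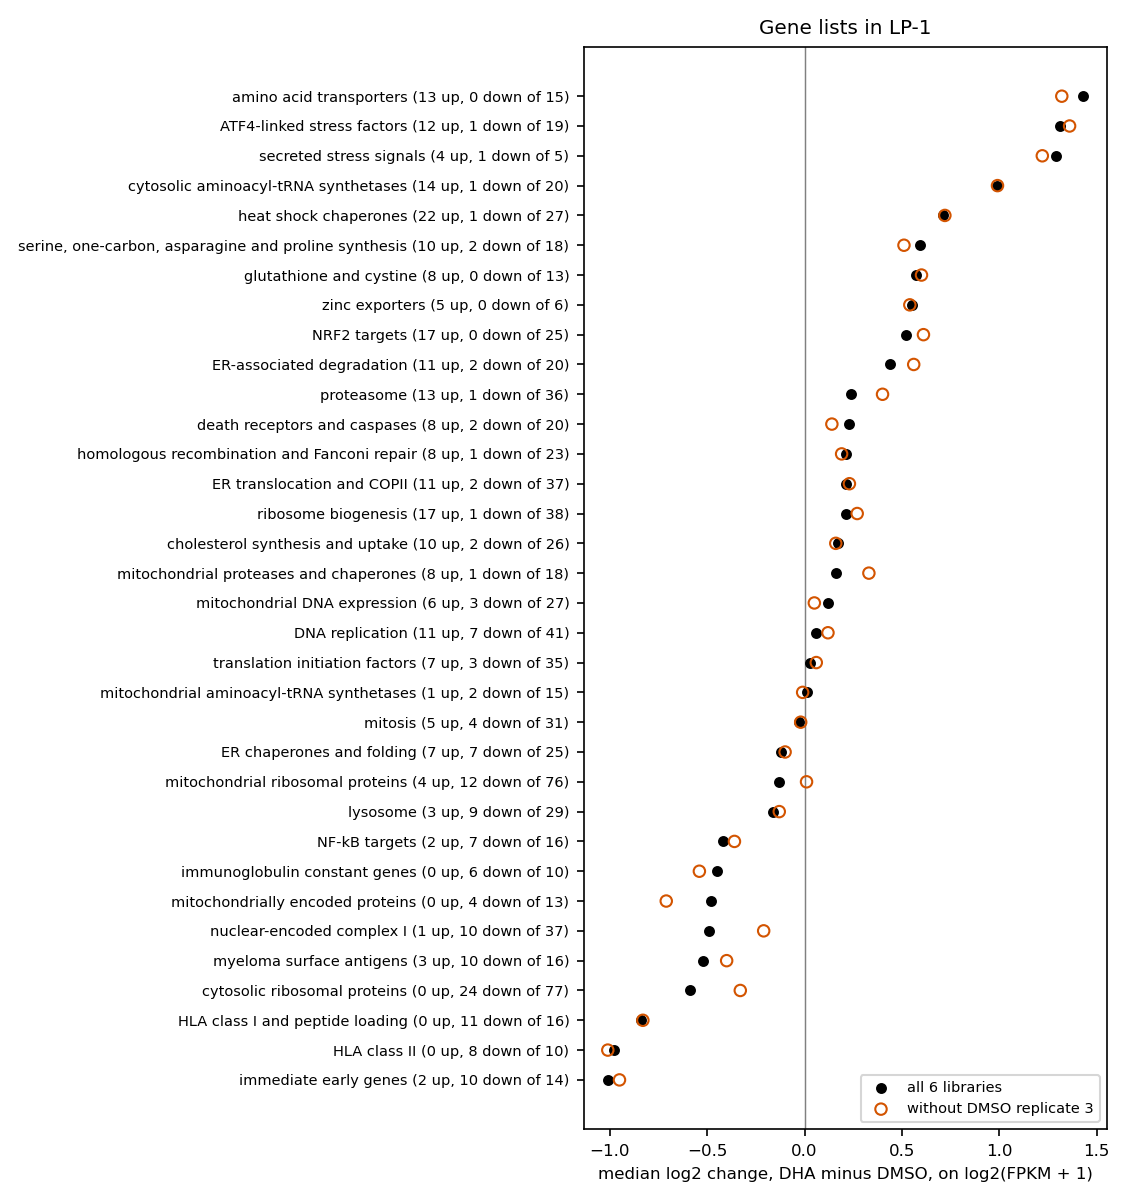
Median log2 change of 34 gene lists with all 6 libraries (filled) and without DMSO replicate 3 (open); the counts in the labels are tested members that rose and fell with all 6 libraries. Amino acid transporters, ATF4-linked factors and secreted stress signals lie highest, and HLA and immediate early genes lowest; the lists of mitochondrially encoded proteins, complex I and cytosolic ribosomal proteins move most between the 2 fits.

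In the endoplasmic reticulum, the sensor gene ERN1 and a majority of the tested degradation genes rose, and as many folding genes rose as fell. ERN1 (ENSG00000178607, chr17:64039142-64130819, - strand), which encodes the sensor IRE1 alpha, was at 4.07, 4.54 and 3.1 FPKM with DMSO and 37.5, 37.2 and 36.4 FPKM with DHA (log2 change 2.97 ± 0.12 and 2.84, adjusted p = 5.8e-05). XBP1, whose mRNA IRE1 splices, was at 483, 428 and 598 FPKM with DMSO and 317, 328 and 348 FPKM with DHA (log2 change -0.59 ± 0.14 and -0.46, adjusted p = 0.0195). The call of XBP1 was lost with no filter (adjusted p = 0.0673), with quantile normalization (adjusted p = 0.141) or without DMSO replicate 1 (0.057), DHA replicate 1 (0.0864), DHA replicate 2 (0.0798) or DHA replicate 3 (0.0622), with adjusted p from 0.00312 to 0.141 over the alternatives. Of 20 genes of ER-associated degradation, all tested, 11 rose, 2 fell and 7 did not pass. Over genes of ER-associated degradation the median log2 change was 0.44, or 0.56 without DMSO replicate 3, where 14 rose and 3 fell. SEL1L and SYVN1, partners in the ubiquitin ligase of this pathway, rose from 28.3 ± 3.99 FPKM to 72.9 ± 1.14 and from 23.2 ± 4.83 FPKM to 45.9 ± 1.2, and EDEM1, which picks misfolded glycoproteins, from 9.86 ± 0.35 FPKM to 25.4 ± 0.232; DERL3, a channel component, fell from 6.79 ± 0.659 FPKM to 2.87 ± 0.423 (adjusted p from 0.000116 to 0.00419). Of 26 ER chaperones and folding enzymes, 25 of them tested, 7 rose, 7 fell and 11 did not pass. Over ER chaperones and folding enzymes the median log2 change was -0.12, or -0.10 without DMSO replicate 3, where 7 rose and 9 fell; the sign of the median turned with the rescaling described above. The co-chaperones DNAJB9 and DNAJC3 rose from 29.3 ± 3.76 FPKM to 84.2 ± 4.94 and from 12.7 ± 0.567 FPKM to 24.1 ± 0.607 and HYOU1, an HSP70-like chaperone, from 45.4 ± 10.6 FPKM to 92.3 ± 1.27. HSP90B1, the ER form of HSP90, fell from 166 ± 15.5 FPKM to 100 ± 1.72 (log2 change -0.72 and -0.64), CRELD2 from 17.7 ± 5.08 FPKM to 7.88 ± 0.451 (log2 change -1.04 and -0.83) and SIL1, the nucleotide exchange factor of BiP, from 12.8 ± 1.69 FPKM to 7.44 ± 0.591 (log2 change -0.71 and -0.61). Of 37 genes of translocation into and vesicle export from the ER, all tested, 11 rose, 2 fell and 24 did not pass. Over genes of translocation into and vesicle export from the ER the median log2 change was 0.21, or 0.23 without DMSO replicate 3, where 20 rose and 6 fell. SEC24D, a cargo adaptor of COPII vesicles, rose from 5.45 ± 0.999 FPKM to 17.7 ± 0.906 (log2 change 1.54 and 1.41) and SEC61A1, the translocation channel, from 27.8 ± 3.16 FPKM to 54.4 ± 1.74 (log2 change 0.95 and 0.86).

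Cytosolic chaperones rose in most members. Of 30 heat shock genes, 27 of them tested, 22 rose, 1 fell and 4 did not pass. Over heat shock genes the median log2 change was 0.71, or 0.72 without DMSO replicate 3, where 25 rose and 1 fell. BAG3, a co-chaperone of selective autophagy, was at 7.21, 7.68 and 6.54 FPKM with DMSO and 55.4, 52.5 and 52.4 FPKM with DHA (log2 change 2.74 ± 0.08 and 2.69, adjusted p = 1.98e-05). HSPA6, an inducible HSP70, was at 40.5, 37.6 and 52.4 FPKM with DMSO and 168, 168 and 172 FPKM with DHA (log2 change 1.95 ± 0.13 and 2.09, adjusted p = 0.000246). HSPA8, the constitutive HSP70, was at 317, 312 and 322 FPKM with DMSO and 638, 644 and 668 FPKM with DHA (log2 change 1.03 ± 0.09 and 1.05, adjusted p = 0.000576). Its level per length was above that of HSPA6 in every library. HSPA6 and HSPA1B have near-identical relatives, so how their reads were assigned is uncertain; HSPA1B rose from 85.1 ± 16.8 FPKM to 242 ± 8.04 (log2 change 1.51 and 1.66). The windows of HSPA8 (chr11:123062087-123062386, - strand) and HSPA6 (chr1:161524290-161524589, + strand) are shown because they held the heat shock element, set in capitals.
HSPA8: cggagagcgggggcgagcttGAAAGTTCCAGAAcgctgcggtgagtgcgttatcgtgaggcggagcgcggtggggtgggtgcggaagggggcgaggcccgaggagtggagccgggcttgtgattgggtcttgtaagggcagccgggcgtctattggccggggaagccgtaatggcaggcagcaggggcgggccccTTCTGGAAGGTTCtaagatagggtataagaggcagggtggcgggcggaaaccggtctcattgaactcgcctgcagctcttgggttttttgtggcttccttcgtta
HSPA6: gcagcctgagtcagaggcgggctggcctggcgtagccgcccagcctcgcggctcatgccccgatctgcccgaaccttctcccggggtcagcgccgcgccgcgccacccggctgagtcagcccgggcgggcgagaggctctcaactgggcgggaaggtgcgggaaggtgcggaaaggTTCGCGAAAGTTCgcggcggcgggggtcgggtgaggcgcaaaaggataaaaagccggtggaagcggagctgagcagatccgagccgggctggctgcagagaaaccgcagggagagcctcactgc
HSPA8 held 2 matches and HSPA6 held 1. The element was in 0.516% of riser promoters, 0.524% of those of risers of at least 2-fold, 0.33% of those of all tested coding genes and 0.49% of all promoters. It was thus in few promoters of any set. Of 37 proteasome genes, 36 of them tested, 13 rose, 1 fell and 22 did not pass. Over proteasome genes the median log2 change was 0.24, or 0.40 without DMSO replicate 3, where 27 rose and 1 fell. NFE2L1, the transcription factor that restores proteasome genes, was at 40.2, 40.8 and 23.5 FPKM with DMSO and 162, 169 and 163 FPKM with DHA (log2 change 2.25 ± 0.21 and 2.0, adjusted p = 0.000737). Subunits of the regulatory particle rose less, PSMD1 from 6.32 ± 0.156 FPKM to 12 ± 0.454, PSMD14, the deubiquitinase, from 8.43 ± 1.99 FPKM to 14.9 ± 0.582 and PSMD11 from 12.8 ± 1.22 FPKM to 22.2 ± 0.607 (adjusted p from 0.000499 to 0.00961). SQSTM1, the autophagy receptor p62, rose from 18.4 ± 1.14 FPKM to 45.4 ± 1.78 (log2 change 1.26 and 1.29), and WIPI1, which marks early autophagosomes, from 3.79 ± 0.557 FPKM to 11.1 ± 0.431 (log2 change 1.35 and 1.27), while GABARAP, an ATG8 protein, fell from 43.8 ± 2.39 FPKM to 26.2 ± 0.865 (log2 change -0.72 and -0.68). Lysosomal genes fell more often than they rose. Of 32 lysosomal genes, 29 of them tested, 3 rose, 9 fell and 17 did not pass. Over lysosomal genes the median log2 change was -0.16, or -0.13 without DMSO replicate 3, where 7 rose and 11 fell. CTSB, cathepsin B, was at 51.7, 46.7 and 46.1 FPKM with DMSO and 16.6, 17.3 and 17 FPKM with DHA (log2 change -1.45 ± 0.08 and -1.48, adjusted p = 0.000116), and LGMN, the lysosomal protease legumain, was at 440, 413 and 500 FPKM with DMSO and 99.5, 97.6 and 97.8 FPKM with DHA (log2 change -2.18 ± 0.10 and -2.11, adjusted p = 9.04e-05).

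Both mitochondrially encoded rRNAs were called higher. Mitochondrial DNA is transcribed from both strands into long precursors that are cut into rRNAs, mRNAs and tRNAs. MT-RNR1 (ENSG00000211459, chrM:648-1601, + strand), the 12S rRNA, was at 912, 951 and 974 FPKM with DMSO and 2806, 2708 and 2778 FPKM with DHA (log2 change 1.55 ± 0.12 and 1.57, adjusted p = 0.000371). MT-RNR2, the 16S rRNA, was at 4874, 5590 and 4734 FPKM with DMSO and 8144, 7782 and 7887 FPKM with DHA (log2 change 0.65 ± 0.18 and 0.60, adjusted p = 0.0285). The call of MT-RNR2 was lost with no filter (adjusted p = 0.535) or without DMSO replicate 1 (0.113), DHA replicate 1 (0.13), DHA replicate 2 (0.114) or DHA replicate 3 (0.111), with adjusted p from 0.000897 to 0.535 over the alternatives. The summed FPKM of both rRNAs over that of the 13 mRNAs was 0.0857, 0.0858 and 0.125 in the DMSO libraries and 0.254, 0.253 and 0.25 in the DHA libraries, and MT-RNR1 over MT-RNR2 was 0.187, 0.17 and 0.206 against 0.344, 0.348 and 0.352. Groups did not overlap in either ratio, with two-sided p = 0.1 in an exact permutation test, the smallest that 3 against 3 libraries can give. These ratios compare RNAs within a library and do not show which of them changed. The kit is labelled as one for mRNA. How well it captured each mitochondrial RNA, the rRNAs, MT-ND6 and the tRNA below included, was not tested, so these values may reflect capture as well as abundance.

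The mRNAs were lower or not shown to differ. Of 13 mitochondrially encoded mRNAs, all tested, 0 rose, 4 fell and 9 did not pass. Over mitochondrially encoded mRNAs the median log2 change was -0.48, or -0.71 without DMSO replicate 3, where 0 rose and 12 fell; the sign of the median turned with quantile normalization. MT-ND6 (ENSG00000198695, chrM:14149-14673, - strand), the only mRNA of the light strand, was at 2836, 3267 and 2368 FPKM with DMSO and 898, 817 and 873 FPKM with DHA (log2 change -1.70 ± 0.16 and -1.82, adjusted p = 0.000746), and passed under every alternative. MT-ND3, of complex I, was at 2892, 3205 and 3573 FPKM with DMSO and 1846, 1739 and 1794 FPKM with DHA (log2 change -0.84 ± 0.15 and -0.76, adjusted p = 0.00625). MT-CO2, of cytochrome oxidase, was at 11802, 12688 and 9732 FPKM with DMSO and 6354, 6213 and 6553 FPKM with DHA (log2 change -0.83 ± 0.20 and -0.94, adjusted p = 0.0193). MT-CO3 was at 9992, 10998 and 8653 FPKM with DMSO and 6446, 6311 and 6477 FPKM with DHA (log2 change -0.62 ± 0.19 and -0.71, adjusted p = 0.0453). The call of MT-ND3 was lost with no filter (adjusted p = 0.164) or with quantile normalization (adjusted p = 0.0786), with adjusted p from 0.00068 to 0.164 over the alternatives. The call of MT-CO2 was lost with no filter (adjusted p = 0.523) or without DMSO replicate 1 (0.0807), DHA replicate 1 (0.0982), DHA replicate 2 (0.1) or DHA replicate 3 (0.0845), with adjusted p from 0.000744 to 0.523 over the alternatives. The call of MT-CO3 was lost with no filter (adjusted p = 0.616), with quantile normalization (adjusted p = 0.916), with the rescaling described above (adjusted p = 0.0871) or without DMSO replicate 1 (0.14), DMSO replicate 2 (0.0582), DHA replicate 1 (0.166), DHA replicate 2 (0.171) or DHA replicate 3 (0.152), with adjusted p from 0.00216 to 0.916 over the alternatives. Library preparation and counting are not stated to keep strand, so reads of MT-ND6 and of MT-TP, another light strand gene, cannot be told from heavy strand transcripts. MT-TP, the proline tRNA, was at 1271, 1559 and 930 FPKM with DMSO and 619, 623 and 678 FPKM with DHA (log2 change -0.94 ± 0.20 and -1.14, adjusted p = 0.0126). The call of MT-TP was lost with no filter (adjusted p = 0.0601), with quantile normalization (adjusted p = 0.225) or without DHA replicate 1 (0.0572) or DHA replicate 2 (0.0567), with adjusted p from 0.000335 to 0.225 over the alternatives.

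For the other mRNAs DMSO replicate 3 set the spread. MT-ND4L, MT-ATP8 and MT-ND5 were lowest there, at 730, 1060 and 748 FPKM, against 2690 and 3351 FPKM for MT-ND4L in DMSO replicates 1 and 2. Their log2 changes were 0.14 and -0.54, 0.23 and -0.36 and -0.48 and -1.08. Changes of the rest were -0.07 and -0.31 for MT-ND1, 0.03 and -0.26 for MT-ND2, -0.68 and -0.90 for MT-CO1, -0.11 and -0.40 for MT-ATP6, -0.70 and -1.06 for MT-ND4 and -0.16 and -0.48 for MT-CYB, with adjusted p from 0.0669 to 0.939 with all libraries. MT-ND1, MT-ND5, MT-ATP6 and MT-CYB were above 0 with quantile normalization, as was the list median at 0.03. MT-ATP8 and MT-ND4L overlap neighbouring genes, and nuclear copies of mitochondrial DNA share sequence with these genes, so single values are uncertain.

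**Figure D3:**
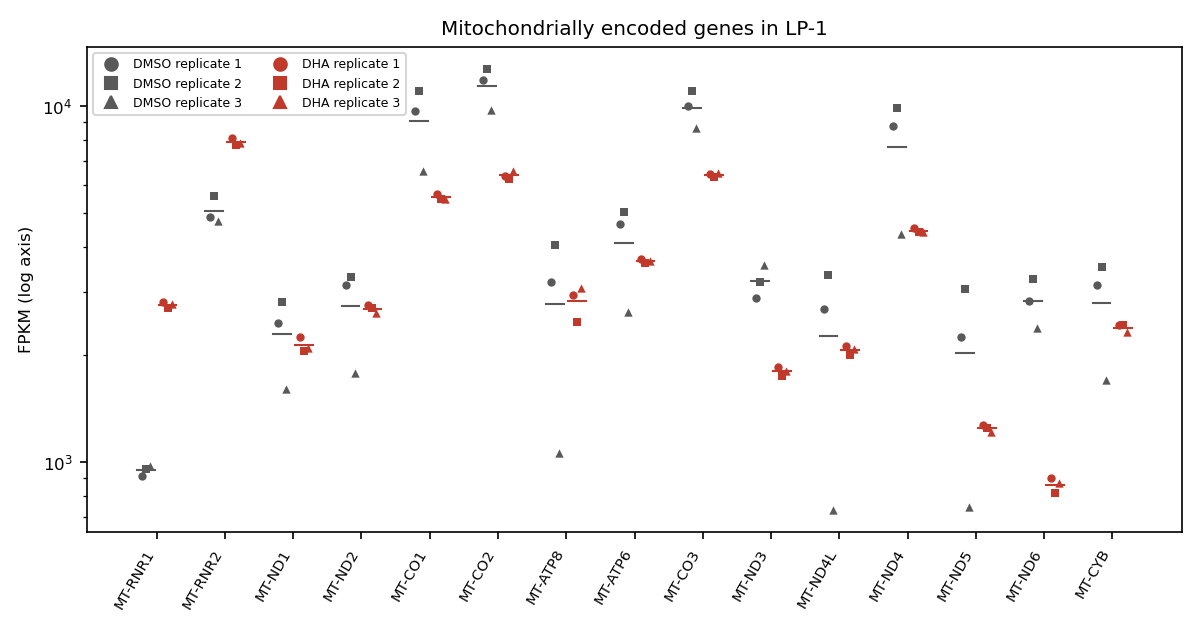
FPKM (log axis) of the 2 rRNA and 13 protein genes of mitochondrial DNA in each library, in the order of the genome, with horizontal bars at group means (n = 3). Both rRNAs are higher in all 3 DHA libraries, MT-ND6 lower in all 3, and DMSO replicate 3 (grey triangles) lies well under the other DMSO libraries in MT-ND4L, MT-ATP8 and MT-ND5.

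Nuclear genes for mitochondria and ribosomes moved with DMSO replicate 3. Of 37 nuclear complex I genes, all tested, 1 rose, 10 fell and 26 did not pass. Over nuclear complex I genes the median log2 change was -0.49, or -0.21 without DMSO replicate 3, where 2 rose and 14 fell. Of 77 cytosolic ribosomal protein genes, all tested, 0 rose, 24 fell and 53 did not pass. Over cytosolic ribosomal protein genes the median log2 change was -0.59, or -0.33 without DMSO replicate 3, where 0 rose and 59 fell. Of 77 mitochondrial ribosomal protein genes, 76 of them tested, 4 rose, 12 fell and 60 did not pass. Over mitochondrial ribosomal protein genes the median log2 change was -0.13, or 0.01 without DMSO replicate 3, where 14 rose and 19 fell; the sign of the median turned with the rescaling described above and without DMSO replicate 3. In DMSO replicate 3 these lists lay 0.73, 0.73 and 0.45 above DMSO replicates 1 and 2 (median log2 difference), and median exon lengths of 2263, 3109 and 2544 bases put them among the shorter genes; the part of either in the falls was not tested. Many ribosomal protein genes have near-identical pseudogenes. RPL28 fell from 208 ± 42 FPKM to 119 ± 10.5 (log2 change -0.78 and -0.62) and MRPS28 from 17.2 ± 5.81 FPKM to 7.52 ± 0.0889 (log2 change -1.05 and -0.81). Mitochondrial proteases and chaperones rose more often than they fell. Of 18 mitochondrial proteases and chaperones, all tested, 8 rose, 1 fell and 9 did not pass. Over mitochondrial proteases and chaperones the median log2 change was 0.16, or 0.33 without DMSO replicate 3, where 10 rose and 4 fell. HSPA9, the HSP70 of the matrix, was at 62.6, 62.4 and 69.3 FPKM with DMSO and 142, 142 and 154 FPKM with DHA (log2 change 1.16 ± 0.09 and 1.21, adjusted p = 0.000318). LONP1, a matrix protease, was at 29.2, 26.3 and 29.2 FPKM with DMSO and 65.3, 70.3 and 65.7 FPKM with DHA (log2 change 1.22 ± 0.08 and 1.24, adjusted p = 0.000231). ATF5, a factor of the mitochondrial stress response, rose from 10.5 ± 0.658 FPKM to 30.4 ± 0.635 (log2 change 1.45 and 1.40), and PMPCA, a subunit of the presequence peptidase, fell from 15.1 ± 2.05 FPKM to 7.67 ± 0.195 (log2 change -0.89 and -0.79). Of 27 genes of mitochondrial DNA replication and expression, all tested, 6 rose, 3 fell and 18 did not pass. Over genes of mitochondrial DNA replication and expression the median log2 change was 0.12, or 0.05 without DMSO replicate 3, where 10 rose and 4 fell. MTERF2 fell from 4.21 ± 0.906 FPKM to 1.34 ± 0.215 (log2 change -1.14 and -1.01), while TFAM, which packages mitochondrial DNA, rose from 14.4 ± 0.858 FPKM to 19.2 ± 0.259 (log2 change 0.40 and 0.43) and SUPV3L1, a helicase of mitochondrial RNA turnover, from 15.6 ± 0.58 FPKM to 22.2 ± 0.735 (log2 change 0.48 and 0.46). Of 38 genes of ribosome biogenesis, all tested, 17 rose, 1 fell and 20 did not pass. Over genes of ribosome biogenesis the median log2 change was 0.21, or 0.27 without DMSO replicate 3, where 22 rose and 3 fell. DDX21, a nucleolar helicase, rose from 46.6 ± 7.17 FPKM to 88.5 ± 2.91 (log2 change 0.92 and 0.80).

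The mRNAs of several surface proteins by which myeloma cells are recognised were lower. Of 22 myeloma surface antigens, 16 of them tested, 3 rose, 10 fell and 3 did not pass. Over myeloma surface antigens the median log2 change was -0.52, or -0.40 without DMSO replicate 3, where 4 rose and 10 fell. SDC1 (ENSG00000115884, chr2:20200797-20225433, - strand), syndecan 1 or CD138, the defining plasma cell antigen, was at 32.6, 31.1 and 29.1 FPKM with DMSO and 4.84, 5.72 and 4.93 FPKM with DHA (log2 change -2.37 ± 0.09 and -2.42, adjusted p = 4.93e-05). CXCR4, the receptor that holds plasma cells in the marrow, was at 83.3, 73.5 and 88 FPKM with DMSO and 21.5, 23.1 and 23 FPKM with DHA (log2 change -1.81 ± 0.09 and -1.75, adjusted p = 0.000115). CD38, an antibody target in myeloma, was at 40.1, 40.7 and 29.1 FPKM with DMSO and 18.4, 18.4 and 18 FPKM with DHA (log2 change -0.95 ± 0.14 and -1.10, adjusted p = 0.00301). In these genes each DHA value lay below each DMSO value, as in 28.6% of all tested genes. Genes named for the size of their change were picked for this, so it adds no support. CD48 fell from 8.82 ± 1.87 FPKM to 2.72 ± 0.404 (log2 change -1.39 and -1.25). CD44, a receptor of hyaluronan, rose from 5.95 ± 0.597 FPKM to 12.9 ± 0.407 (log2 change 1.0 and 0.94), and TNFRSF13B (TACI), a receptor of the survival factors BAFF and APRIL, from 22.7 ± 1.07 FPKM to 38.9 ± 2.45 (log2 change 0.75 and 0.79). The other receptor of this pair of ligands, TNFRSF17 (BCMA), did not pass (log2 change -0.60).

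Most tested genes of antigen presentation fell in both HLA classes, and none rose. Of 17 class I and peptide loading genes, 16 of them tested, 0 rose, 11 fell and 5 did not pass. Over class I and peptide loading genes the median log2 change was -0.84, or -0.83 without DMSO replicate 3, where 0 rose and 14 fell. HLA-F, a nonclassical class I gene, was at 10.6, 9.66 and 14.2 FPKM with DMSO and 2.6, 2.46 and 2.64 FPKM with DHA (log2 change -1.79 ± 0.14 and -1.64, adjusted p = 0.000371). The immunoproteasome subunits PSMB8 and PSMB9 fell from 39.5 ± 14.7 FPKM to 13.2 ± 0.786 and from 15.9 ± 5.23 FPKM to 5.42 ± 0.206 (adjusted p from 0.0034 to 0.00503). Of 14 class II genes, 10 of them tested, 0 rose, 8 fell and 2 did not pass. Over class II genes the median log2 change was -0.98, or -1.01 without DMSO replicate 3, where 0 rose and 9 fell. HLA-DMA and HLA-DMB, which load peptides onto class II molecules, fell from 53.4 ± 6.44 FPKM to 20.6 ± 1.06 and from 11.1 ± 0.953 FPKM to 3.67 ± 0.569, and HLA-DOA and HLA-DOB, which restrain them, from 28.7 ± 4.68 FPKM to 11 ± 0.383 and from 5.54 ± 0.324 FPKM to 1.6 ± 0.155 (adjusted p from 0.000245 to 0.000825). HLA genes are close in sequence and highly variable, and levels of single genes are uncertain. Of 16 immunoglobulin constant genes, 10 of them tested, 0 rose, 6 fell and 4 did not pass. Over immunoglobulin constant genes the median log2 change was -0.45, or -0.54 without DMSO replicate 3, where 0 rose and 7 fell. IGHA2 fell from 47.9 ± 10.3 FPKM to 18.3 ± 1.7 (log2 change -1.33 and -1.16) and IGHG3 from 12.5 ± 1.11 FPKM to 7.31 ± 0.491 (log2 change -0.70 and -0.77). The more abundant IGHG1 fell from 1379 ± 192 FPKM to 934 ± 3.16 (log2 change -0.55 and -0.66). Its call was lost under several alternatives, quantile normalization among them, with adjusted p from 0.000766 to 0.648 over the alternatives. How reads shared among immunoglobulin genes and segments were assigned is unknown, so levels of single genes are uncertain. Most interferon-stimulated genes were too low to be tested. Of 28 interferon-stimulated genes, 10 of them tested, 4 rose, 1 fell and 5 did not pass. Over interferon-stimulated genes the median log2 change was 0.18, or 0.33 without DMSO replicate 3, where 5 rose and 1 fell. XAF1 rose from 0.313 ± 0.142 FPKM to 2.01 ± 0.199 (log2 change 1.20 and 1.11) and IRF9 from 0.887 ± 0.17 FPKM to 1.85 ± 0.134 (log2 change 0.60 and 0.55), and IFI6 fell from 5.71 ± 2.07 FPKM to 1.61 ± 0.398 (log2 change -1.33 and -1.09). XAF1 and IRF9 reached 1 FPKM in 3 libraries only with the DHA libraries counted. Their place among the tested genes thus depended on their rise, and the counts do not give a direction for the list.

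**Figure D4:**
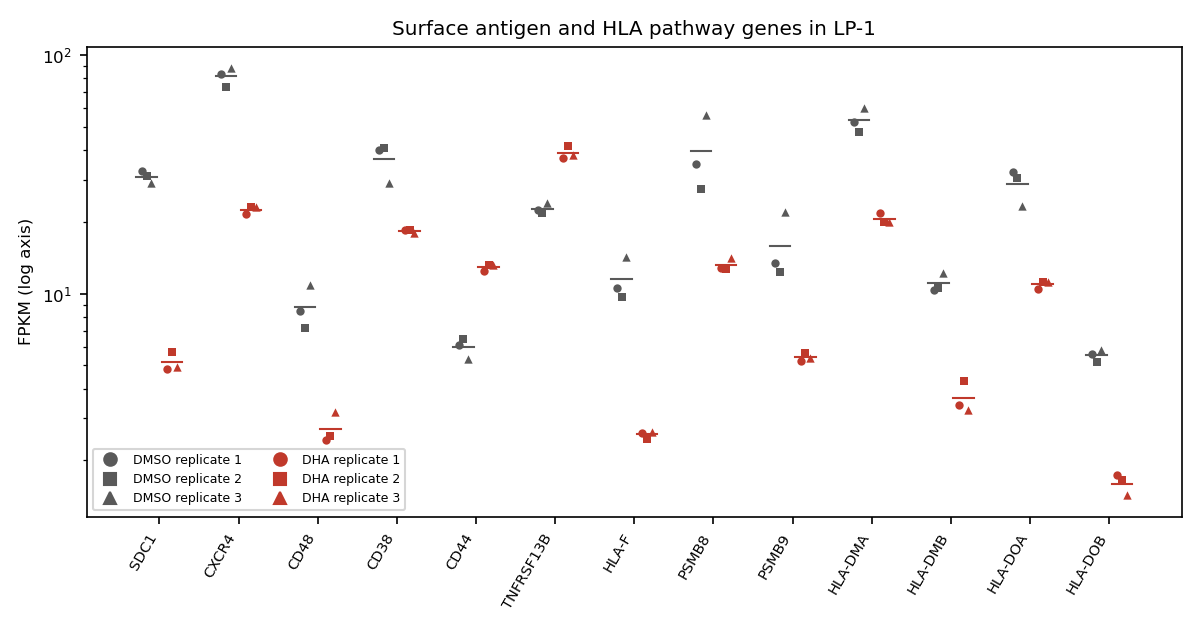
FPKM (log axis) of 6 surface antigen genes and 7 genes of HLA class I and II in each library, with horizontal bars at group means (n = 3). The 13 genes shown were picked from called genes, so their directions are not a count over the lists. DHA values are below DMSO values in the 11 that fell and above them in CD44 and TNFRSF13B, which rose. Over all tested genes the groups lay apart in this way in 28.6% (below) and 30.2% (above).

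Plasma cell regulators split. Of 19 plasma cell factors, 12 of them tested, 5 rose, 4 fell and 3 did not pass. Over plasma cell factors the median log2 change was 0.13, or -0.07 without DMSO replicate 3, where 5 rose and 4 fell; the sign of the median turned without DMSO replicate 3. IRF4, on which myeloma cells depend, was at 83.5, 92.1 and 64.2 FPKM with DMSO and 260, 254 and 244 FPKM with DHA (log2 change 1.66 ± 0.14 and 1.52, adjusted p = 0.000513). BACH2, a repressor of plasma cell differentiation, rose from 2.8 ± 0.882 FPKM to 7.65 ± 0.0924 (log2 change 1.21 and 1.04), and POU2AF1, a B cell coactivator, fell from 18.4 ± 2.76 FPKM to 9.43 ± 0.261 (log2 change -0.88 and -1.0). Of 9 translocation partner genes and D cyclins, 6 of them tested, 1 rose, 2 fell and 3 did not pass. Over translocation partner genes and D cyclins the median log2 change was 0.02, or -0.09 without DMSO replicate 3, where 1 rose and 2 fell; the sign of the median turned without DMSO replicate 3. MAF, a transcription factor that translocations of myeloma can deregulate, fell from 35.2 ± 2.05 FPKM to 19.5 ± 0.884 (log2 change -0.82 and -0.77). MYC rose from 207 ± 23.3 FPKM to 284 ± 11.5 (log2 change 0.46 and 0.36). The call of MYC was lost with no filter (adjusted p = 0.0579) or without DHA replicate 1 (0.0925), DHA replicate 2 (0.087) or DHA replicate 3 (0.0636), with adjusted p from 0.00235 to 0.0925 over the alternatives. Of 16 genes of the MYC network, 15 of them tested, 6 rose, 1 fell and 8 did not pass. Over genes of the MYC network the median log2 change was 0.23, or 0.21 without DMSO replicate 3, where 9 rose and 3 fell. MXD1, an antagonist of MYC, rose from 6.03 ± 1.2 FPKM to 16.1 ± 0.422 (log2 change 1.30 and 1.15) and MYCN from 6.38 ± 0.415 FPKM to 13.8 ± 0.584 (log2 change 1.01 and 1.05).

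Immediate early genes fell in most tested members, and the other lists of signalling genes here held more falls than rises. Of 20 immediate early genes, 14 of them tested, 2 rose, 10 fell and 2 did not pass. Over immediate early genes the median log2 change was -1.01, or -0.95 without DMSO replicate 3, where 3 rose and 11 fell. NR4A2, a nuclear receptor, was at 7.1, 7.51 and 5.14 FPKM with DMSO and 0.28, 0.29 and 0.48 FPKM with DHA (log2 change -2.48 ± 0.15 and -2.62, adjusted p = 0.000182). JUNB was at 53.5, 51.3 and 69.3 FPKM with DMSO and 15, 14.6 and 13.5 FPKM with DHA (log2 change -1.93 ± 0.13 and -1.80, adjusted p = 0.000232). JUN, its relative in the AP-1 factor, was at 36.5, 39.4 and 34.7 FPKM with DMSO and 86.7, 85.7 and 84.5 FPKM with DHA (log2 change 1.19 ± 0.08 and 1.15, adjusted p = 0.000231). JUN and JUNB thus changed in opposite directions. EGR1 fell from 2.32 ± 0.578 FPKM to 0.257 ± 0.0404 (log2 change -1.38 and -1.54), and IER5 rose from 5.04 ± 1.79 FPKM to 10.6 ± 0.17 (log2 change 0.98 and 1.21). Of 17 ID proteins and BMP signalling genes, 13 of them tested, 1 rose, 4 fell and 8 did not pass. Over ID proteins and BMP signalling genes the median log2 change was -0.19, or -0.19 without DMSO replicate 3, where 1 rose and 6 fell. ID1, ID2 and ID3, which block basic helix-loop-helix factors and follow BMP signals, all fell: ID1 was at 104, 95.4 and 180 FPKM with DMSO and 11, 11 and 11.6 FPKM with DHA (log2 change -3.33 ± 0.23 and -3.05, adjusted p = 0.000269), ID2 fell from 58.2 ± 6.58 FPKM to 14.2 ± 1.14 (log2 change -1.95 and -1.88) and ID3 from 5 ± 0.639 FPKM to 1.08 ± 0.125 (log2 change -1.53 and -1.44). Of 23 NF-kB targets, 16 of them tested, 2 rose, 7 fell and 7 did not pass. Over NF-kB targets the median log2 change was -0.42, or -0.36 without DMSO replicate 3, where 3 rose and 8 fell. NFKBIA, the inhibitor of NF-kB, fell from 13.4 ± 1.22 FPKM to 7.6 ± 0.259 (log2 change -0.74 and -0.67) and BIRC3 from 37.1 ± 5.37 FPKM to 19.1 ± 0.852 (log2 change -0.92 and -1.03), while the chemokine CCL3 rose from 7.55 ± 2.28 FPKM to 24.2 ± 0.646 (log2 change 1.59 and 1.79). Of 20 genes of IL6 signalling, 15 of them tested, 4 rose, 5 fell and 6 did not pass. Over genes of IL6 signalling the median log2 change was -0.11, or -0.16 without DMSO replicate 3, where 5 rose and 7 fell. BCL3, an IkB-like coactivator, was at 17, 19.4 and 12.5 FPKM with DMSO and 2.65, 2.88 and 3.02 FPKM with DHA (log2 change -2.15 ± 0.16 and -2.31, adjusted p = 0.000307). IL6ST, the shared receptor chain of IL6, rose from 37.6 ± 8.68 FPKM to 86.6 ± 2.5 (log2 change 1.21 and 1.02). SOCS3, its feedback inhibitor, fell from 1.41 ± 0.325 FPKM to 0.193 ± 0.0586 (log2 change -1.01 and -1.11) and the kinase PIM2 from 341 ± 29.5 FPKM to 190 ± 4.5 (log2 change -0.84 and -0.90).

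Feedback and Krüppel-like factors were divided. Of 17 ERK feedback genes, 11 of them tested, 4 rose, 4 fell and 3 did not pass. Over ERK feedback genes the median log2 change was 0.05, or 0.0 without DMSO replicate 3, where 4 rose and 4 fell; the sign of the median turned without DHA replicate 2. ETV5 rose from 1.37 ± 0.133 FPKM to 5.93 ± 0.159 (log2 change 1.55 and 1.51) and SPRED2 from 2.46 ± 0.741 FPKM to 7.03 ± 0.757 (log2 change 1.23 and 1.04), while SPRY1 fell from 4.12 ± 0.453 FPKM to 1.71 ± 0.318 (log2 change -0.92 and -0.99) and PHLDA1 from 1.95 ± 0.165 FPKM to 0.49 ± 0.0458 (log2 change -0.98 and -0.96). Of 14 Krüppel-like factors, 11 of them tested, 3 rose, 4 fell and 4 did not pass. Over Krüppel-like factors the median log2 change was 0.06, or -0.07 without DMSO replicate 3, where 3 rose and 4 fell; the sign of the median turned with a mean of at least 5 FPKM and without DMSO replicate 3. KLF5 rose from 0.76 ± 0.251 FPKM to 4.2 ± 0.358 (log2 change 1.57 and 1.52) and KLF6 from 36.3 ± 5.93 FPKM to 85.5 ± 1.49 (log2 change 1.23 and 1.09), and KLF2 fell from 19 ± 3.77 FPKM to 6.79 ± 0.404 (log2 change -1.35 and -1.20) and KLF13 from 49.7 ± 15.1 FPKM to 21.5 ± 0.872 (log2 change -1.13 and -1.40). Of 14 FOXO-linked genes, 12 of them tested, 3 rose, 3 fell and 6 did not pass. Over FOXO-linked genes the median log2 change was -0.18, or -0.24 without DMSO replicate 3, where 3 rose and 6 fell. TXNIP, an inhibitor of thioredoxin and of glucose uptake, was at 23.7, 21.6 and 24.2 FPKM with DMSO and 7.37, 7.02 and 7.13 FPKM with DHA (log2 change -1.56 ± 0.08 and -1.53, adjusted p = 0.0001). DEPP1, a FOXO target, was at 14.2, 13.8 and 15.1 FPKM with DMSO and 1.34, 1.82 and 1.49 FPKM with DHA (log2 change -2.59 ± 0.10 and -2.56, adjusted p = 4.93e-05).

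Lists of DNA replication, repair and mitosis held members called in both directions, as did all genes (20.0% rose and 20.2% fell). The repair genes rose more often than they fell. Of 41 genes of DNA replication, all tested, 11 rose, 7 fell and 23 did not pass. Over genes of DNA replication the median log2 change was 0.06, or 0.12 without DMSO replicate 3, where 17 rose and 11 fell. CDC6, which licenses origins, was at 10.2, 9.71 and 10.3 FPKM with DMSO and 27.8, 28.8 and 29.8 FPKM with DHA (log2 change 1.43 ± 0.07 and 1.44, adjusted p = 0.0001). MCM6, of the replicative helicase, rose from 32.6 ± 0.263 FPKM to 70.8 ± 1.82 (log2 change 1.10 and 1.10), and CCNE1, cyclin E1, fell from 3.06 ± 0.31 FPKM to 1.45 ± 0.312 (log2 change -0.74 and -0.68). Of 28 genes of homologous recombination and Fanconi repair, 23 of them tested, 8 rose, 1 fell and 14 did not pass. Over genes of homologous recombination and Fanconi repair the median log2 change was 0.21, or 0.19 without DMSO replicate 3, where 9 rose and 2 fell. BRCA1 rose from 2.86 ± 0.971 FPKM to 6.83 ± 0.254 (log2 change 1.05 and 0.87) and BRCA2 from 0.59 ± 0.243 FPKM to 2.03 ± 0.156 (log2 change 0.94 and 0.85), and RBBP8, which starts resection of broken ends, from 13.6 ± 1.13 FPKM to 25.2 ± 1.15 (log2 change 0.84 and 0.78). Of 32 mitotic genes, 31 of them tested, 5 rose, 4 fell and 22 did not pass. Over mitotic genes the median log2 change was -0.03, or -0.02 without DMSO replicate 3, where 7 rose and 6 fell; the sign of the median turned with the rescaling described above. PTTG1, securin, fell from 35.7 ± 11.8 FPKM to 14.3 ± 0.735 (log2 change -1.22 and -0.97) and CDK1 from 35 ± 7.37 FPKM to 20.9 ± 0.728 (log2 change -0.70 and -0.54), while the kinesins KIF11 and KIF2C rose from 15.6 ± 1.53 FPKM to 22.4 ± 0.241 and from 19 ± 0.417 FPKM to 26.7 ± 1.8 (adjusted p from 0.00507 to 0.00655). Of 44 replication-dependent histone genes, 21 of them tested, 4 rose, 3 fell and 14 did not pass. Over replication-dependent histone genes the median log2 change was 0.0, or -0.10 without DMSO replicate 3, where 5 rose and 7 fell. H4C8 rose from 13.2 ± 0.71 FPKM to 30.4 ± 0.603 (log2 change 1.14 and 1.15) and H4C9 fell from 9.38 ± 1.37 FPKM to 3.47 ± 1.23 (log2 change -1.24 and -1.14); histone genes share sequence, and most of their mRNAs lack a poly(A) tail.

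The death receptor DR5 and the BCL2 family genes PMAIP1 and HRK rose, and MCL1 fell. Of 23 genes of death receptors and caspases, 20 of them tested, 8 rose, 2 fell and 10 did not pass. Over genes of death receptors and caspases the median log2 change was 0.23, or 0.14 without DMSO replicate 3, where 9 rose and 3 fell. TNFRSF10B, the TRAIL receptor DR5, was at 8.84, 7 and 4.62 FPKM with DMSO and 30.4, 30.7 and 31.3 FPKM with DHA (log2 change 2.06 ± 0.20 and 1.84, adjusted p = 0.000757). CASP8, its initiator caspase, rose from 17.4 ± 0.386 FPKM to 33.2 ± 0.826 (log2 change 0.89 and 0.90) and XIAP, a caspase inhibitor, from 2.6 ± 0.526 FPKM to 6.05 ± 0.0624 (log2 change 0.98 and 0.88), while CASP6, an executioner, fell from 9.67 ± 0.561 FPKM to 4.07 ± 0.401 (log2 change -1.07 and -1.04). Of 20 BCL2 family genes, 15 of them tested, 3 rose, 2 fell and 10 did not pass. Over BCL2 family genes the median log2 change was 0.01, or -0.01 without DMSO replicate 3, where 5 rose and 4 fell; the sign of the median turned with a mean of at least 5 FPKM, with quantile normalization and without DMSO replicate 3 or DHA replicate 2. PMAIP1 (NOXA), which binds MCL1, was at 20.4, 16.5 and 26 FPKM with DMSO and 62.8, 62.6 and 70.8 FPKM with DHA (log2 change 1.62 ± 0.16 and 1.78, adjusted p = 0.000912). MCL1, the survival factor of plasma cells, fell from 247 ± 8.78 FPKM to 155 ± 3.84 (log2 change -0.67 and -0.69), and HRK, another BH3-only gene, rose from 0.473 ± 0.0252 FPKM to 2.59 ± 0.161 (log2 change 1.28 and 1.28); BCL2 rose from 21.9 ± 2.83 FPKM to 32.4 ± 0.345 (log2 change 0.55 and 0.45). Of 23 p53 targets, 20 of them tested, 7 rose, 6 fell and 7 did not pass. Over p53 targets the median log2 change was 0.01, or -0.01 without DMSO replicate 3, where 8 rose and 7 fell; the sign of the median turned with pseudocount 0.1 and without DMSO replicate 2 or DMSO replicate 3 or DHA replicate 3. GADD45A rose from 5.27 ± 1.31 FPKM to 14.9 ± 1.33 (log2 change 1.36 and 1.51), and BTG2, an antiproliferative gene, fell from 662 ± 21 FPKM to 219 ± 7.1 (log2 change -1.59 and -1.62), CCNG1 from 296 ± 42.2 FPKM to 145 ± 6.45 (log2 change -1.01 and -0.90) and TP53INP1 from 121 ± 15.9 FPKM to 48.4 ± 0.265 (log2 change -1.30 and -1.41).

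In lipid and sugar metabolism, most lists held calls in both directions, as did all genes (20.0% rose and 20.2% fell). Cholesterol genes rose more often than they fell, and no gene of defence against lipid peroxidation fell with all 6 libraries. Of 29 genes of cholesterol synthesis and uptake, 26 of them tested, 10 rose, 2 fell and 14 did not pass. Over genes of cholesterol synthesis and uptake the median log2 change was 0.17, or 0.16 without DMSO replicate 3, where 13 rose and 3 fell. HMGCS1, the synthase of HMG-CoA, rose from 9.98 ± 0.503 FPKM to 20.5 ± 0.495 (log2 change 0.97 and 0.98) and MSMO1, a sterol methyl oxidase, from 14.8 ± 1.29 FPKM to 28 ± 0.997 (log2 change 0.88 and 0.94), while TM7SF2, a sterol reductase, fell from 20.3 ± 3.74 FPKM to 8.18 ± 0.286 (log2 change -1.20 and -1.08). Of 17 genes of fatty acid synthesis and desaturation, 14 of them tested, 5 rose, 3 fell and 6 did not pass. Over genes of fatty acid synthesis and desaturation the median log2 change was 0.25, or 0.16 without DMSO replicate 3, where 7 rose and 3 fell. FADS3, a desaturase, rose from 4.27 ± 0.504 FPKM to 11.6 ± 0.721 (log2 change 1.26 and 1.31), and ACSS2, which makes acetyl-CoA from acetate, fell from 4.12 ± 0.382 FPKM to 1.91 ± 0.156 (log2 change -0.81 and -0.87). Of 16 genes of defence against lipid peroxidation, 15 of them tested, 4 rose, 0 fell and 11 did not pass. Over genes of defence against lipid peroxidation the median log2 change was 0.11, or 0.17 without DMSO replicate 3, where 5 rose and 4 fell. TXNRD1, thioredoxin reductase 1, rose from 37.9 ± 3.1 FPKM to 86.3 ± 3.35 (log2 change 1.17 and 1.10), ACSL3 from 4.12 ± 0.494 FPKM to 7.21 ± 0.151 (log2 change 0.69 and 0.60) and MBOAT1 from 9.4 ± 0.13 FPKM to 15.1 ± 0.29 (log2 change 0.63 and 0.64). Of 23 glycolytic genes, 21 of them tested, 6 rose, 6 fell and 9 did not pass. Over glycolytic genes the median log2 change was -0.04, or -0.09 without DMSO replicate 3, where 6 rose and 7 fell; the sign of the median turned with quantile normalization and with the rescaling described above. HK2, hexokinase 2, rose from 26.7 ± 4.73 FPKM to 57.9 ± 1.3 (log2 change 1.10 and 0.96) and the glucose transporter SLC2A1 from 2.7 ± 0.358 FPKM to 7.09 ± 0.659 (log2 change 1.13 and 1.05), while ALDOC, an aldolase, fell from 36.2 ± 2.84 FPKM to 16.9 ± 1.73 (log2 change -1.06 and -1.03). Of 18 hypoxia targets, 15 of them tested, 2 rose, 5 fell and 8 did not pass. Over hypoxia targets the median log2 change was -0.10, or -0.20 without DMSO replicate 3, where 5 rose and 8 fell; the sign of the median turned with the rescaling described above. P4HA2, a collagen prolyl hydroxylase, fell from 67.3 ± 3.88 FPKM to 18.8 ± 0.612 (log2 change -1.78 and -1.75), in the opposite direction to VEGFA.

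Long noncoding RNAs and an immunoglobulin segment were among the genes outside the protein-coding class that fell most. LINC03034 (ENSG00000259772, chr15:31221999-31230838, - strand), a long noncoding RNA, was at 120, 126 and 98.9 FPKM with DMSO and 14.1, 14.1 and 13.4 FPKM with DHA (log2 change -2.95 ± 0.11 and -3.06, adjusted p = 4.62e-05). IGHV4-31, an immunoglobulin variable segment, was at 208, 167 and 216 FPKM with DMSO and 41.2, 37 and 39.5 FPKM with DHA (log2 change -2.29 ± 0.12 and -2.22, adjusted p = 0.000115). MIR142HG, the host of the blood cell microRNA miR-142, was at 12.5, 10.3 and 20.4 FPKM with DMSO and 2.03, 2.64 and 1.67 FPKM with DHA (log2 change -2.26 ± 0.25 and -2.0, adjusted p = 0.0012). MIR142HG varied most among the DMSO libraries, with its highest value in DMSO replicate 3. SNTG2-AS1 fell from 8.18 ± 1.05 FPKM to 0.81 ± 0.154 (log2 change -2.34 and -2.25), RF00432 from 12.6 ± 2 FPKM to 2.08 ± 0.643 (log2 change -2.15 and -2.27) and AC092135.3 from 11.3 ± 0.766 FPKM to 1.53 ± 0.53 (log2 change -2.30 and -2.26). AC092135.3 lies on the strand of CMIP within that gene's span (81445170 to 81711762 on chromosome 16), and CMIP did not pass (-0.36 on the log2 scale, adjusted p = 0.156).

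The largest rises outside the protein-coding class started from low levels. CHILL1 (ENSG00000253616, chr8:23071377-23074488, - strand) was at 0.25, 1.01 and 0.37 FPKM with DMSO and 9.09, 12.8 and 11.9 FPKM with DHA (log2 change 3.01 ± 0.21 and 2.94, adjusted p = 0.000269). MIR22HG, the host of miR-22, was at 1.89, 1.98 and 2.4 FPKM with DMSO and 10.2, 10.1 and 10.6 FPKM with DHA (log2 change 1.87 ± 0.09 and 1.95, adjusted p = 9.99e-05). Among IDs with no class in the annotation used, ENSG00000289298 rose from 3.82 ± 0.764 FPKM to 20.1 ± 1.32 (log2 change 2.14 and 2.24) and ENSG00000289915 from 1.07 ± 0.806 FPKM to 6.99 ± 0.853 (log2 change 2.01 and 1.97). MIR4258 rose from 4.99 ± 1.24 FPKM to 22.4 ± 1.06 (log2 change 1.99 and 1.80); it lies on the strand of CKS1B, within that gene's span, and CKS1B did not pass (0.11 on the log2 scale, adjusted p = 0.714). MIR22HG lies opposite WDR81, which did not pass (0.25, adjusted p = 0.112), and reads of this pair cannot be told apart.

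Of 28 nuclear and regulatory long noncoding RNAs, 16 of them tested, 4 rose, 4 fell and 8 did not pass. Over nuclear and regulatory long noncoding RNAs the median log2 change was 0.05, or -0.04 without DMSO replicate 3, where 5 rose and 6 fell; the sign of the median turned with a mean of at least 5 FPKM and without DMSO replicate 3. NORAD, which binds Pumilio proteins, was at 100, 103 and 77.6 FPKM with DMSO and 169, 166 and 172 FPKM with DHA (log2 change 0.86 ± 0.12 and 0.73, adjusted p = 0.00307). LUCAT1 rose from 1.69 ± 0.526 FPKM to 4.47 ± 0.0493 (log2 change 1.05 and 0.88), and MIR155HG, the host of miR-155, from 0.597 ± 0.0666 FPKM to 1.79 ± 0.388 (log2 change 0.80 and 0.79). MIR210HG, the host of the hypoxia-induced miR-210, was at 7.78, 5.57 and 11.9 FPKM with DMSO and 1.78, 2.78 and 1.79 FPKM with DHA (log2 change -1.55 ± 0.26 and -1.30, adjusted p = 0.00504). Of 24 host genes of small nucleolar RNAs, all tested, 2 rose, 2 fell and 20 did not pass. Over host genes of small nucleolar RNAs the median log2 change was -0.07, or 0.10 without DMSO replicate 3, where 8 rose and 5 fell; the sign of the median turned with the rescaling described above and without DMSO replicate 3. SNHG17 rose from 2.59 ± 0.332 FPKM to 4.32 ± 0.159 (log2 change 0.57 and 0.62). Host genes as a list were 0.48 higher in DMSO replicate 3 than in DMSO replicates 1 and 2 (median log2 difference).

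**Figure D5:**
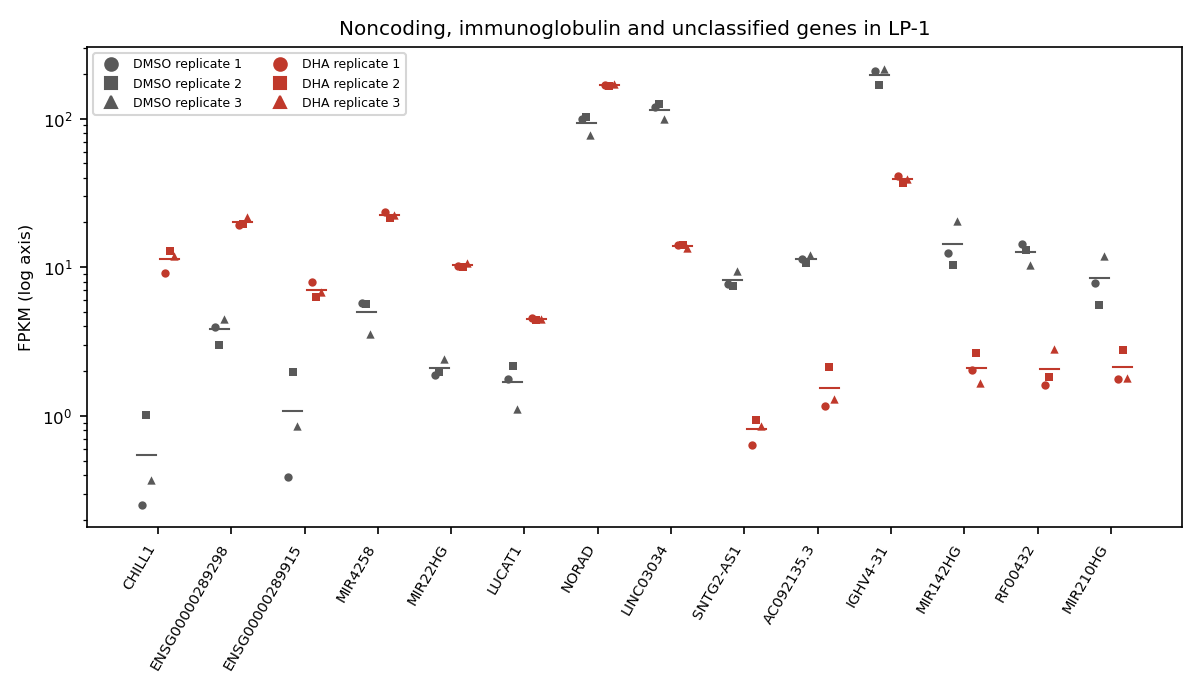
FPKM (log axis) of 14 noncoding, immunoglobulin or unclassified genes in each library, with horizontal bars at group means (n = 3). NORAD, a regulatory RNA, is higher in all 3 DHA libraries, and LINC03034 and IGHV4-31, the most abundant of those that fell, are lower in all 3. LINC03034 and IGHV4-31 were picked from genes whose groups do not overlap.

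The remaining largest changes belonged to no list. MSC (musculin), a helix-loop-helix repressor, was at 6.18, 6.08 and 6.4 FPKM with DMSO and 57.2, 58.6 and 55.8 FPKM with DHA (log2 change 3.01 ± 0.07 and 3.03, adjusted p = 1.61e-05). MAP1B, a microtubule-associated protein, was at 5.96, 9.4 and 3.45 FPKM with DMSO and 64, 60.2 and 54.9 FPKM with DHA (log2 change 3.14 ± 0.29 and 2.83, adjusted p = 0.000681). METTL7A, a methyltransferase-like protein of lipid droplets, was at 66.1, 69.9 and 73.1 FPKM with DMSO and 11.7, 11.5 and 12.1 FPKM with DHA (log2 change -2.47 ± 0.07 and -2.44, adjusted p = 1.98e-05). MAP1B varied most among the DMSO libraries and was lowest in DMSO replicate 3. MARCKSL1, an actin-binding substrate of protein kinase C, fell from 172 ± 30.6 FPKM to 34.3 ± 1.05 (log2 change -2.27 and -2.13), RCN3, a calcium-binding protein of the ER, from 28 ± 5.26 FPKM to 5.43 ± 0.247 (log2 change -2.16 and -2.02), and HES7, a helix-loop-helix repressor, from 9.4 ± 1.54 FPKM to 0.947 ± 0.219 (log2 change -2.41 and -2.29). YPEL3 fell from 11.3 ± 1.4 FPKM to 1.29 ± 0.202 (log2 change -2.42 and -2.33), RAB26, a GTPase of vesicle traffic, from 11.1 ± 2.21 FPKM to 0.983 ± 0.329 (log2 change -2.61 and -2.48) and NSG2 from 18.7 ± 0.199 FPKM to 2.36 ± 0.208 (log2 change -2.55 and -2.56).

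Few genes went from near absence to clear expression or back. With a limit of under 0.5 FPKM in every library of 1 group and at least 2 FPKM in every library of the other, 2 genes were low with DMSO and 10 low with DHA. ANXA1 (ENSG00000135046, chr9:73151757-73170393, + strand), annexin A1, was at 0.17, 0.18 and 0.2 FPKM with DMSO and 9.39, 9.33 and 10.4 FPKM with DHA (log2 change 3.18 ± 0.08 and 3.19, adjusted p = 1.61e-05). SERPINB8, a protease inhibitor, was at 0.3, 0.31 and 0.3 FPKM with DMSO and 3.22, 2.58 and 2.89 FPKM with DHA (log2 change 1.58 ± 0.10 and 1.57, adjusted p = 0.000216). Of the 10 that were low with DHA, NR4A2 and NR4A1 are nuclear receptors of the immediate early group, and NR4A1 was at 3.79, 4.24 and 2.76 FPKM with DMSO and 0.16, 0.24 and 0.09 FPKM with DHA (log2 change -1.97 ± 0.15 and -2.11, adjusted p = 0.000333). GPRC5B, an orphan receptor, fell from 3.57 ± 0.569 FPKM to 0.437 ± 0.0586, GIPR, the receptor of an incretin, from 2.74 ± 0.42 FPKM to 0.387 ± 0.0252, CAMK2A, a calcium-dependent kinase, from 2.58 ± 0.466 FPKM to 0.37 ± 0.01, PRRT2 from 2.82 ± 0.709 FPKM to 0.367 ± 0.118, FAM171A2 from 2.73 ± 0.512 FPKM to 0.32 ± 0.0866 and ENSG00000288993 from 3.34 ± 0.634 FPKM to 0.0267 ± 0.0462 (adjusted p from 0.00023 to 0.00105). The other two were MMP11 and LEFTY2.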

How the data were processed

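RNA-seq of 6 LP-1 libraries was used; the U266 table was not used here. Per the labels, libraries came from a SMARTER mRNA kit. The deposited values are FPKM per Ensembl gene with 2 decimals. GRCm38 and mm10, both of the mouse, are the builds in the submitters' processing notes, but the gene IDs are human. The sources used here do not give the aligner, counter, strand handling or annotation. Of 61806 genes 58254 are in GENCODE v29 (GRCh38), the source of gene positions and classes, and 30562 were at 0 in all 6 libraries.

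Reads per library were worked out from GENCODE exon lengths and the step between low FPKM values; 86.7 to 89.2% of low values lay within 0.1 read of a whole number. Genes with at least 1 FPKM in at least 3 libraries were tested on log2(FPKM + 1) with limma 3.58.1 in R 4.3.3 (lmFit, eBayes with a variance trend), with Benjamini-Hochberg adjustment and a threshold of 0.05. The script was tested on simulated data. Members, lists and motifs were chosen with earlier results of these data known. Named genes were the 12 largest rises and falls among called coding genes and the 6 among other genes (groups not overlapping, higher group mean of at least 5 FPKM), mitochondrial mRNAs and rRNAs, up to 4 called members of a list in each direction, genes that went from under 0.5 to at least 2 FPKM or back, and genes whose promoter is printed; of these, members whose calls were lost under an alternative were mostly left to the counts. A few genes that met this rule are not reported here. Lists are described by counts and medians, and no list was tested. Promoter windows are RefSeq entries of GRCh38.p14, and 82.9% of tested coding genes matched one or more. Alternatives were no filter, a pseudocount of 0.1, only genes with a mean of 5 FPKM or more, quantile and TMM-style scaling (trims of 30% and 5%), rescaling, no variance trend, a replicate block, at least a 2-fold change, leaving out each library, and motifs on the promoter strand only. Replicates share numbers across groups that the labels do not explain; the check is given under the processing alternatives.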

Additional observations from a re-analysis of the deposited data

How the results depend on the processing

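With a mean of at least 5 FPKM, 1664 of 6903 genes rose and 1370 fell, and with at least a 2-fold change 394 and 501, since fewer genes can pass. Leaving out 1 library gave 1367 to 3499 rises and 1543 to 3574 falls; the lowest counts came without a DHA library and the highest without DMSO replicate 3. Other alternatives gave 2137 to 2832 rises and 1840 to 2673 falls. Of 380 genes that met the naming rule 371 were called, 259 of them under every alternative that tested them, and each of the 371 also passed without DMSO replicate 3. Some changes of genes of mitochondrial DNA, and those of DEPTOR and EIF4B, turned in sign. With quantile normalization the log2 change was 0.08 for DEPTOR, 0.03 for EIF4B, 0.15 for MT-ATP6, 0.01 for MT-CO3, 0.03 for MT-CYB, 0.47 for MT-ND1 and 0.12 for MT-ND5. Rescaling without immunoglobulin and mitochondrially encoded genes gave 0.04 for MT-ATP6 and 0.08 for MT-ND1. Without DMSO replicate 1 it was 0.01 for MT-ATP6 and 0.0 for MT-ND1, and without DMSO replicate 2 it was 0.07 for MT-ATP6, 0.05 for MT-CYB and 0.1 for MT-ND1. Without DMSO replicate 3 it was -0.36 for MT-ATP8, -0.26 for MT-ND2 and -0.54 for MT-ND4L. Without 1 library at a time the log2 change ran from -0.42 to -0.3 for DEPTOR, from -0.28 to -0.26 for EIF4B, from -0.4 to 0.07 for MT-ATP6, from -0.36 to 0.61 for MT-ATP8, from -0.71 to -0.54 for MT-CO3, from -0.48 to 0.05 for MT-CYB, from -0.31 to 0.1 for MT-ND1, from -0.26 to 0.19 for MT-ND2, from -0.54 to 0.56 for MT-ND4L, from -1.08 to -0.06 for MT-ND5. The causes were not tested. Searched on the promoter strand only, motifs were in fewer riser promoters, the metal response element core in 36.3%, the CEBP-ATF response element in 1.55% and the antioxidant response element in 8.18%, as fewer positions are searched.

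A replicate block gave 2267 rises and 2292 falls, and under it MT-RNR2, MT-CO2, MT-CO3 and DEPTOR had an adjusted p of 0.0989, 0.0719, 0.13 and 0.0856. Deviations of same-numbered libraries from their group means correlated across genes at 0.0742, 0.0237 and 0.183, and DMSO replicate 2 correlated best with DHA replicate 1 (0.162), so the numbers were not taken to pair the samples. Depth limits low genes: the floor of 3 reads of a 2 kb transcript is 0.0857 to 0.112 FPKM.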
